A study of Mus musculus with 12 samples.

Results

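The expression of 10 SNARE genes of the plasma membrane and the endosomes was followed in oligodendrocyte-enriched cells of the mouse spinal cord in which RalA alone, or RalA and RalB together, had been targeted. The 10 genes were Vamp2, Vamp3, Vamp4, Vamp7, Vamp8, Stx3, Stx4a, Stx7, Snap23 and Snap29. They were given as a list of names, with no threshold on a value, and they are 10 of the 36 SNARE genes examined and of the 35675 genes counted. All 3 groups carried CnpCre, a Cre recombinase driven by the myelinating-glia gene Cnp, and the reporter Rosa26-StopFlox-TdTomato. The control group had these alleles alone, so the controls expressed Cre too. The RalA cKO group had RalAflox/flox in addition, and the RalAB cKO group, the double mutants, had both RalAflox/flox and RalBflox/flox. Each group had 4 mice of postnatal day 10 with 1 library per mouse. Red cells with a large forward scatter were sorted, so any cell type that had recombined the reporter and passed the size gate could be present. The labels do not state sex. The median log2 fold change of 4 Y-linked genes was 2.072 for RalA cKO and 0.947 for RalAB cKO, each relative to control. For the double relative to the single mutants it was -1.155. In each comparison 0 of these 4 genes had an unadjusted p under 0.05 in edgeR. Whether the groups differed in their mix of sexes was not tested.

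SNAREs are the short coiled-coil proteins that fuse a vesicle with its target membrane. An R-SNARE on the vesicle, usually a VAMP, zips together with a Qa-SNARE of the syntaxin family and with Qb and Qc helices on the target, and the SNAP proteins carry both of these helices in a single chain (Qbc). RalA and RalB are small GTPases that bind the exocyst, a tethering complex that holds secretory vesicles at the cell surface before SNAREs fuse them. In oligodendrocytes, VAMP3 and VAMP7 are known for the delivery of myelin membrane proteins, and syntaxin 4 and SNAP23 for fusion at the plasma membrane.

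Of the 10 genes, 2 rose in RalAB cKO against control, namely Vamp8 (3.16-fold) and Stx3 (3.96-fold), where 9.39% of all tested genes rose. Both were among the least abundant of the 10, and both were also higher in RalAB cKO than in RalA cKO. Vamp7 was lower in RalAB cKO than in RalA cKO but differed from control in neither mutant by the test. The abundant genes Vamp2, Vamp3, Stx7 and Stx4a, and also Vamp4, Snap23 and Snap29, did not pass the edgeR test in any of the 3 comparisons, although Vamp2 in RalAB cKO against control passed with DESeq2 and limma-voom, and Snap23 there with limma-voom. In RalA cKO against control, 0 of the 10 passed.

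Each library held 10.93 to 15.44 M estimated counts. The sorted cells matched their label, since the summed level of 10 mature oligodendrocyte markers, with Mbp the highest, was 92600 to 127000 CPM (gene counts relative to the TMM-scaled library total) in the 12 libraries. Markers of other cells were present as well. In RalAB cKO against control 5 of the 10 mature oligodendrocyte, 2 of 6 precursor and 5 of 8 astrocyte markers fell in edgeR. Over all tested genes 9.02% fell and 9.39% rose in that comparison. DESeq2 and limma-voom also called 1 and 2 of the mature oligodendrocyte markers higher there. Over all genes these tools called 1574 and 2113 higher in that comparison. The mean astrocyte sum was 432 CPM in control and 294 CPM in RalAB cKO, and the endothelial and pericyte sum averaged 37.6 CPM in control mice against 19.4 CPM in RalA cKO, where 0 of its 9 markers passed in edgeR and 8 had an unadjusted p under 0.05. The sum of 16 microglia and macrophage markers, none of them at 0, was 301 to 669 CPM in control, 202 to 340 CPM in RalA cKO and 1340 to 2450 CPM in RalAB cKO, and 15 of the 16 rose in RalAB cKO against control. In RalA cKO against control 1 of the 16 fell in edgeR, where 1.07% of all tested genes fell. An unadjusted p under 0.05 was reached there by 13 of the 16, beside 3063 of all 13456 tested genes. DESeq2 and limma-voom called 6 and 9 of the 16 lower in RalA cKO. Over all genes these tools called 457 and 681 lower there. The sum of 12 neuron markers was 91.2 to 186, 82.3 to 125 and 58.8 to 72.9 CPM in control, RalA cKO and RalAB cKO. Whole-gene Rala was 35.5 to 59.3 CPM in control, 33.1 to 42.7 CPM in RalA cKO and 32.2 to 42.9 CPM in RalAB cKO, and neither Rala nor Ralb passed the edgeR test in any comparison (lowest adjusted p = 0.0832), while limma-voom called Rala lower in RalAB cKO. On the TPM scale Rala in control (32.7 to 41.4) lay above RalA cKO (18.2 to 25.4) and RalAB cKO (18.5 to 28.3), which overlapped each other. The transcript Rala-202 had log2 differences from control of -7.988 in RalA cKO and -5.207 in RalAB cKO. Neither passed (adjusted p = 0.164 and 0.135, edgeR on transcripts). Whole-gene Ralb was 15.07 to 23.32 CPM in control, 13.35 to 17.52 CPM in RalA cKO and 14.03 to 17.23 CPM in RalAB cKO. Its level thus overlapped between the mutants, although only RalAB cKO carried RalBflox/flox. Control 1 and RalAB cKO 1 stood apart most from their groups, with quality weights of 0.416 and 0.444 against 0.632 to 2.27 for the other 10 libraries.

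The order of the SNAREs by level per length was first established in the control mice. On the TPM scale (relative abundance corrected for transcript length), the 5 most abundant of the 36 SNAREs in control were, by their means, Vamp2, Vamp3, Ykt6, Use1 and Snap47. Ranks 3 to 8 (Ykt6, Use1, Snap47, Stx7, Stx6 and Stx2) overlapped, so these places were not separated. Vamp2 was highest at 198.4 ± 13.2 TPM (SD, n = 4) and Vamp3 second at 157.6 ± 18.3 TPM. The 4 values of Vamp2 (179.5 to 208.4 TPM) lay above those of Vamp3 (135.4 to 175.7 TPM), and those of Vamp3 above the values of Ykt6 (105.6 to 123.1 TPM), an R-SNARE of the Golgi and endosomes. The next of the 10 were Stx7 at 99.4 ± 19.2 TPM (rank 6) and Stx4a at 60.9 ± 3.68 TPM (rank 12). Snap23 followed at 38.8 ± 11.5 TPM (rank 15) and Snap29 at 27.6 ± 3.26 TPM (rank 20). The lowest levels were those of Vamp4 at 13.4 ± 4.66 TPM (rank 25), Vamp8 at 8.11 ± 2.16 TPM (rank 31), Vamp7 at 6.81 ± 2.15 TPM (rank 32) and Stx3 at 1.02 ± 0.563 TPM (rank 33). Within the 10, the control values of Snap23 and Snap29, of Vamp4 and Vamp8, and of Vamp8 and Vamp7 overlapped, so these neighbours were not separated.

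**Figure D1:**
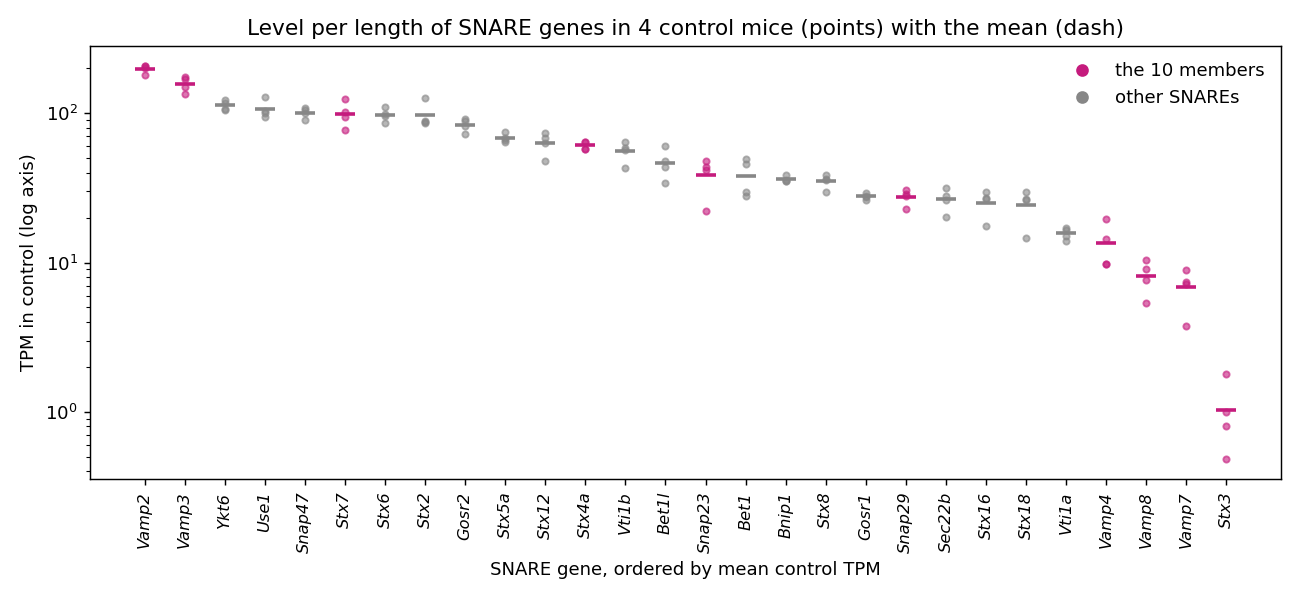
Level per length (TPM, log axis) in the 4 control mice of the 25 most abundant SNARE genes and of the followed genes ranked below them, with points for single mice, a dash for the mean and the 10 followed genes in magenta. Vamp2 and Vamp3 stand at the top with 198.4 and 157.6 TPM, and Vamp8, Vamp7 and Stx3 are at the lower end.

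Together the 10 genes made up 35.5% of the summed TPM of all SNAREs in control (SD 1.12 percentage points, n = 4). The share was 34.6% (SD 1.65) in the single and 36.1% (SD 0.15) in the double mutants. Among the R-SNAREs, Vamp2 and Vamp3 held 66.6% ± 2.43 of the summed TPM in the controls, against 66.2% ± 1.47 in the single and 64.5% ± 1.09 in the double mutants, and these ranges overlapped. The share of Vamp8 among the R-SNAREs was 1.5% ± 0.347 in the controls, against 1.67% ± 0.626 in the single and 4.26% ± 0.908 in the double mutants. Its lowest share in RalAB cKO, 3.22%, was above the highest of the other groups, 2.38%. Even there, Vamp8 (23.0 TPM) remained far below Vamp2 (223 TPM) and Vamp3 (127 TPM) per length.

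Vamp8 encodes the R-SNARE endobrevin of late endosomes and secretory granules, which also serves fusion of autophagosomes with lysosomes. The gene lies at chr6:72385223-72390703 on the minus strand of GRCm38 (GENCODE vM21). Vamp8 stood at 3.013, 3.252, 3.501 and 2.0 CPM in the controls (mice 1 to 4), against 2.32, 2.21, 4.28 and 5.62 CPM in the RalA single mutants and 6.46, 8.33, 10.8 and 11.9 CPM in the double mutants. All 4 RalAB cKO mice were above every mouse of the other groups, while RalA cKO and control overlapped. These levels rest on few reads, 22 to 56 counts per library in control and 87 to 156 in RalAB cKO.

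The log2 fold change of Vamp8 in RalAB cKO against control was 1.66 ± 0.31 (SE), with a 95% interval of 1.01 to 2.31 (adjusted p = 0.00151, edgeR's quasi-likelihood test with Benjamini-Hochberg adjustment over 13456 genes). Against RalA cKO it was 1.36 ± 0.30 (adjusted p = 0.00642, edgeR), which is also the test that the changes from control differed between the mutants. RalA cKO against control gave 0.30 ± 0.31 (adjusted p = 0.592, edgeR), with an interval of -0.37 to 0.96. The first of these calls was kept in each of the 22 alternative settings, at 1.53 to 1.84, and so was the second, at 1.19 to 1.67. In bulk RNA, more cells of a type and more RNA per cell cannot be told apart.

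The microglia and macrophage marker sum moved with Vamp8 in RalAB cKO, where mice 1 to 4 had 1340, 1700, 2380 and 2450 CPM, the same order of mice as for Vamp8. In RalA cKO the mean marker sum was lower than in control (292 ± 61.2 against 476 ± 152 CPM, n = 4 each) while mean Vamp8 was 3.61 against 2.94 CPM. The part of these cells in the rise of Vamp8 was not tested.

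Stx3 encodes syntaxin 3, a Qa-SNARE known for fusion at the apical membrane of epithelia and for granule release, and lies at chr19:11775118-11819403 on the minus strand. Its level was 1.18, 1.43, 2.19 and 0.727 CPM in the controls (mice 1 to 4), against 0.179, 0.884, 2.71 and 2.99 CPM in the RalA single mutants and 6.46, 4.655, 4.316 and 6.845 CPM in the double mutants. Every RalAB cKO mouse again lay above every other mouse, and RalA cKO mice spread on both sides of the control values. Counts per library were 8 to 35 in control, 2 to 42 in RalA cKO and 54 to 90 in RalAB cKO.

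Stx3 rose by 1.985 ± 0.52 on the log2 scale in RalAB cKO against control, with a 95% interval of 0.88 to 3.09 (adjusted p = 0.0153, edgeR). This call was kept in the 22 alternative settings, with values of 1.80 to 2.29 and adjusted p up to 0.0475. RalAB cKO exceeded RalA cKO by 1.70 ± 0.52 (adjusted p = 0.0444, edgeR), and RalA cKO against control gave 0.29 ± 0.54 (adjusted p = 0.781, edgeR). The call between the mutants was lost without any 1 of control 1 and 2, RalA cKO 1 and 2 or the 4 RalAB cKO libraries, with log2 values from 1.33 to 1.80 and adjusted p from 0.0505 to 0.134. It was also lost with library totals alone (adjusted p = 0.0559), without the filter on low counts (0.0787), in a fit of the 2 groups alone (0.0734), with the Y-linked covariate (0.0736) and without both control 1 and RalAB cKO 1 (0.0916), at log2 values of 1.615 to 1.80 (edgeR). In RalAB cKO mice 1 to 4 the microglia and macrophage marker sum was 1340, 1700, 2380 and 2450 CPM. Stx3 in these mice was 6.46, 4.655, 4.316 and 6.845 CPM. Mouse 4 was thus highest in both, and mouse 1, whose library had a quality weight of 0.444, was lowest in the sum and second highest in Stx3. Both values were higher in every RalAB cKO mouse than in any mouse of the other groups. The part of these cells in the rise of Stx3 was not tested.

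**Figure D2:**
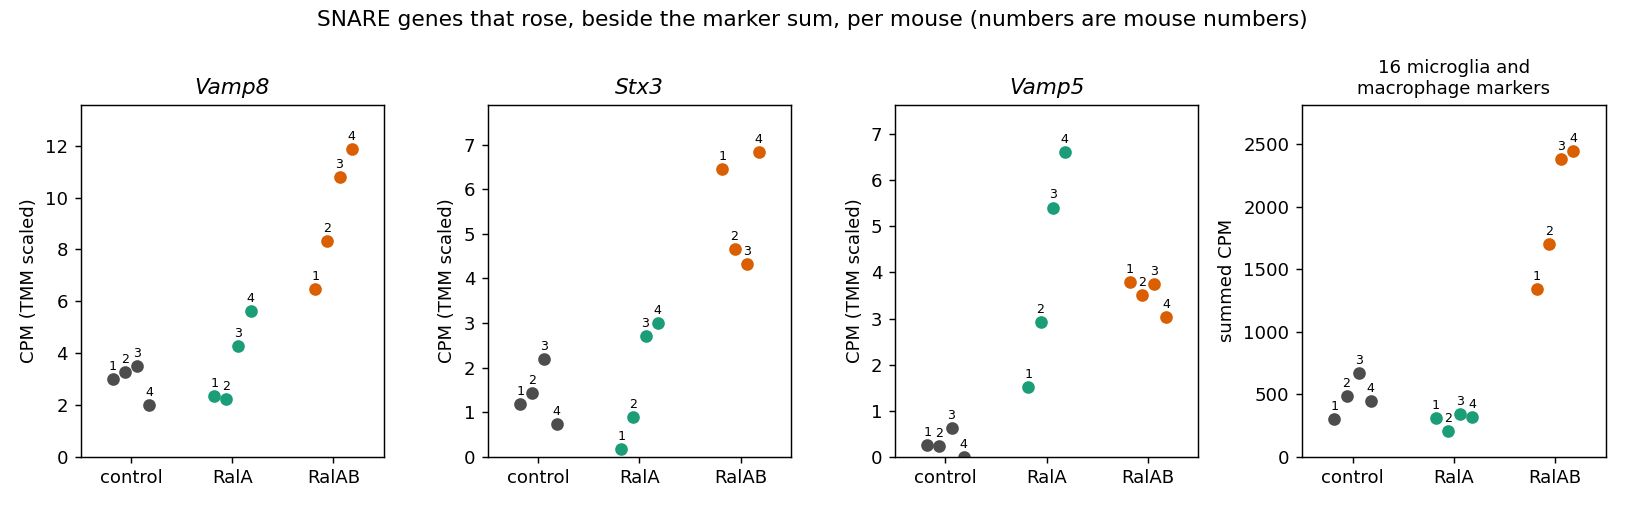
TMM-scaled CPM of Vamp8, Stx3 and Vamp5 and the summed CPM of 16 microglia and macrophage markers, 1 point per mouse with its number. All 4 RalAB cKO mice lie above the other groups for Vamp8 (from 6.46 CPM), Stx3 (from 4.32 CPM) and the marker sum (from 1340 CPM), whereas Vamp5 is raised in both mutants and the marker sum is not in RalA cKO.

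The sequences before the start sites of the 2 genes that rose are shown, because both genes moved in the same comparison. They are the 250 bases upstream of the RefSeq start on GRCm38.p6, written 5′ to 3′ on the strand of the gene with CpG dinucleotides in capitals, at chr6:72390668-72390917 for Vamp8 and chr19:11819404-11819653 for Stx3, both on the minus strand.
Vamp8: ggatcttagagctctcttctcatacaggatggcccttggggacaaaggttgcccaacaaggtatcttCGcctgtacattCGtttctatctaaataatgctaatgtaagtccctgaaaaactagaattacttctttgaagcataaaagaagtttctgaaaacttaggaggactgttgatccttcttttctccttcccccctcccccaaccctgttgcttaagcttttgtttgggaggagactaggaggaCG
Stx3: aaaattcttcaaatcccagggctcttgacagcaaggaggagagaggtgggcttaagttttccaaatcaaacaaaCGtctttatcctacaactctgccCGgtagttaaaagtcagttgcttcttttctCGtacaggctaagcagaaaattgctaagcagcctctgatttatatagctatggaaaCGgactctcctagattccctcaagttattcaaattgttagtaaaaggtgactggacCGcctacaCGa

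The Vamp8 window held 3 CpG dinucleotides and a GC content of 43.6%, and the Stx3 window held 6 with a GC content of 42.0%. Over the 32851 promoters of the RefSeq table the median was 6, with quartiles of 2 and 16. Windows were found for 7 of the 10 genes, and those of Vamp4 (18 and 28 at its 2 starts), Snap23 (17), Stx4a (23) and Snap29 (26) held more, while those of Stx7 held 4 and 7. On either strand, a TATA-box word, TATAAA, was found in the Stx3 window and not in that of Vamp8, and 12.4% of all promoters held it. In the Stx3 window it lay only on the strand opposite to the gene, as tttata in the printed sequence. Neither window held the CCAAT box word (CCAAT, in 33.8% of all promoters), the GC box core (GGGCGG, in 32.7%) or the E-box CACGTG (in 6.0%). The median GC content of all promoters was 52.4%. These matches describe letters and not the binding of a factor.

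Vamp7 encodes TI-VAMP, an R-SNARE of late endosomes and lysosomes with an autoinhibitory longin domain. It is annotated on the X-linked scaffold GL456233.1:10738-39148 (minus strand) and has 1 transcript. Its level was 6.35, 13.8, 10.4 and 12.1 CPM in the controls (mice 1 to 4), against 11.26, 20.07, 12.04 and 20.28 CPM in the RalA single mutants and 11.4, 7.68, 8.87 and 7.76 CPM in the double mutants. RalA cKO mice 2 and 4 were highest, and the highest RalAB cKO mouse and the lowest RalA cKO mouse overlapped.

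Vamp7 was lower in RalAB cKO than in RalA cKO by a log2 difference of -0.84 ± 0.25, 1.79-fold, with a 95% interval of -1.37 to -0.31 (adjusted p = 0.0392, edgeR). Against control the values were 0.58 ± 0.25 in RalA cKO (adjusted p = 0.178, edgeR) and -0.25 ± 0.25 in RalAB cKO (adjusted p = 0.534, edgeR). The call between the mutants was lost without RalA cKO 2 or 4 and without RalAB cKO 2, 3 or 4, with values of -0.84 to -0.70 and adjusted p of 0.086 to 0.136. It was also lost with library totals alone and with transcript length offsets (-0.79 and -0.80, adjusted p = 0.078 and 0.0784 in edgeR). The direction did not change in any of these.

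**Figure D3:**
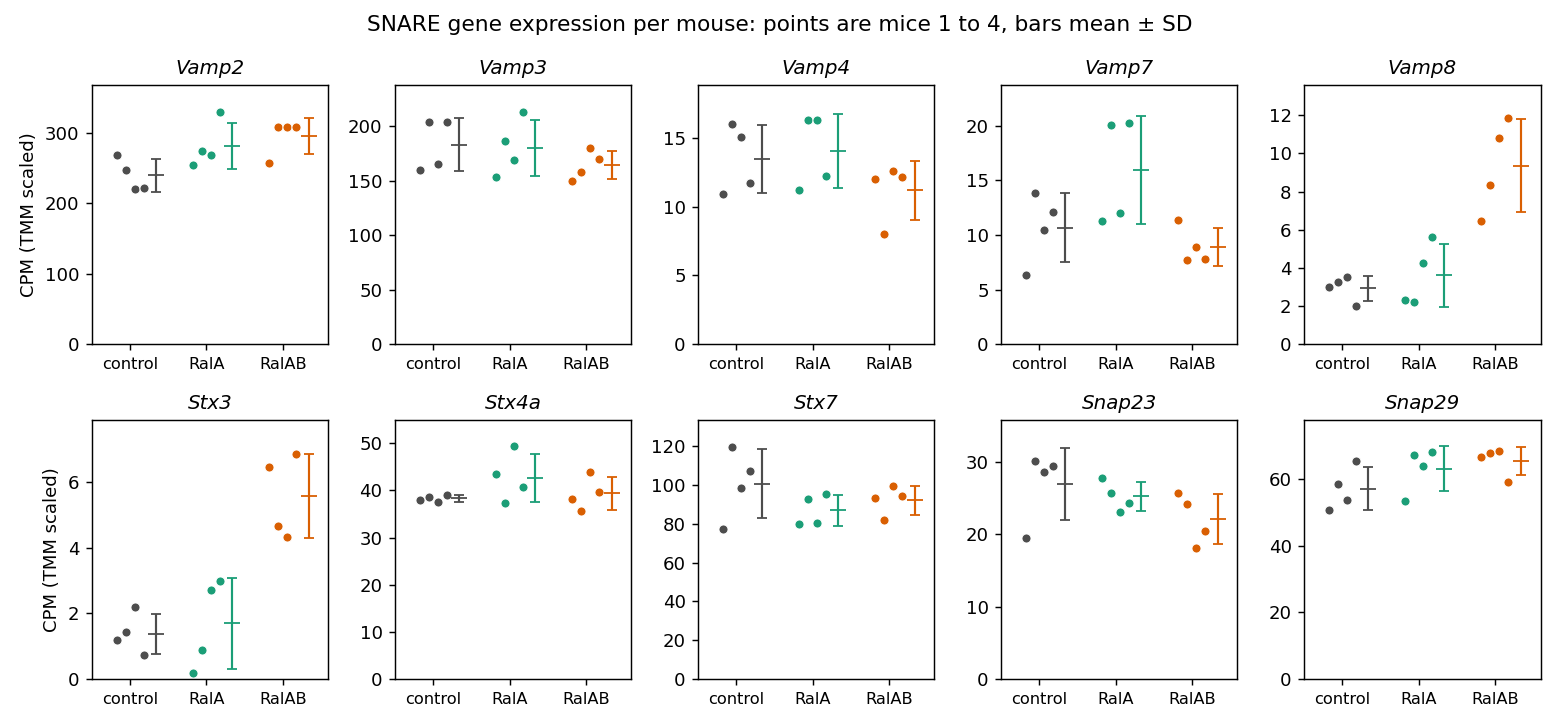
TMM-scaled CPM of the 10 SNARE genes in each of the 12 mice, with points for mice 1 to 4 from left to right in each group and bars for the mean ± SD; every axis starts at 0. The groups separate for Vamp8 and Stx3, where the lowest RalAB cKO mice have 6.46 and 4.32 CPM, and overlap for the other genes.

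Vamp2 and Vamp3, the synaptobrevins 2 and 3 (cellubrevin), are the R-SNAREs of regulated and of constitutive or recycling vesicles at the plasma membrane. Vamp2 (chr11:69088490-69092384, plus strand) was 268.1, 247.2, 220.5 and 221.4 CPM in the controls (mice 1 to 4), against 253.4, 273.4, 268.0 and 328.6 CPM in the RalA single mutants and 256.6, 307.5, 307.5 and 308.2 CPM in the double mutants. In RalAB cKO, 3 mice lay above every control mouse, and mouse 1 was within the control range. The log2 difference of Vamp2 from control was 0.30 ± 0.11 in RalAB cKO (adjusted p = 0.0655, edgeR) and 0.23 ± 0.11 in RalA cKO (adjusted p = 0.22, edgeR), with intervals of 0.07 to 0.53 and 0.00 to 0.46. The RalAB cKO value passed on all 12 libraries with DESeq2 (0.315, adjusted p = 0.0357) and limma-voom (0.38, adjusted p = 0.00775). In edgeR it passed without control 1 (0.36), without RalAB cKO 1 (0.36) and without both of these libraries (0.43, adjusted p = 0.00711 in edgeR, a setting chosen after seeing the data).

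Vamp3 (chr4:151047300-151057963, minus strand, inside the same-strand gene Camta1) was 160.1, 204.1, 165.2 and 203.9 CPM in the controls (mice 1 to 4), against 153.3, 186.3, 169.2 and 213.3 CPM in the RalA single mutants and 150.2, 158.0, 179.9 and 169.9 CPM in the double mutants. The 3 groups overlapped. The log2 difference from control was -0.02 ± 0.12 in RalA cKO and -0.16 ± 0.12 in RalAB cKO, with intervals of -0.28 to 0.23 and -0.41 to 0.10. Neither value passed (adjusted p = 0.931 and 0.403, edgeR).

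Vamp4, an R-SNARE of the trans-Golgi network and early endosomes (chr1:162570515-162599084, plus strand), was 10.94, 16.02, 15.07 and 11.73 CPM in the controls (mice 1 to 4), against 11.2, 16.3, 16.3 and 12.2 CPM in the RalA single mutants and 12.03, 8.003, 12.55 and 12.17 CPM in the double mutants. RalAB cKO 2 was the lowest of the 12, and the groups overlapped. The log2 difference from control was -0.26 ± 0.19 in RalAB cKO (adjusted p = 0.369, edgeR) and 0.06 ± 0.19 in RalA cKO (adjusted p = 0.879, edgeR), and the latter took the other sign with library totals alone.

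Stx7 encodes syntaxin 7, the Qa-SNARE of late endosomes, and lies at chr10:24149302-24190222 on the plus strand. It was 77.35, 119.5, 98.33 and 107.3 CPM in the controls (mice 1 to 4), against 80.2, 92.85, 80.3 and 95.2 CPM in the RalA single mutants and 93.5, 81.8, 99.5 and 94.3 CPM in the double mutants. On this scale control mouse 1 was the lowest of all and the groups overlapped. The log2 differences from control were -0.21 ± 0.12 in RalA cKO (adjusted p = 0.33, edgeR) and -0.12 ± 0.12 in RalAB cKO (adjusted p = 0.538, edgeR). On the TPM scale the RalA cKO values (59.0 to 70.9) lay below those of control (77.3 to 123.7). With protein-coding transcripts alone, the TPM ranges of 43.66 to 50.02 in RalA cKO and 43.97 to 75.67 in control overlapped. A retained-intron transcript of 362 bases, Stx7-203, carried 30.6% of the Stx7 TPM in control with only 3.82% of its counts.

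Stx4a encodes syntaxin 4, the Qa-SNARE of the plasma membrane that pairs with SNAP23, and lies at chr7:127824294-127849019 on the plus strand, where its end overlaps a gene on the opposite strand. Stx4a was 37.9, 38.55, 37.6 and 39.1 CPM in the controls (mice 1 to 4), against 43.5, 37.3, 49.3 and 40.6 CPM in the RalA single mutants and 38.2, 35.7, 44.0 and 39.6 CPM in the double mutants. The control mice were close together, with an SD of 0.677 CPM around 38.3 CPM, and the groups overlapped. The log2 difference from control was 0.16 ± 0.11 in RalA cKO and 0.04 ± 0.11 in RalAB cKO, with intervals of -0.07 to 0.38 and -0.18 to 0.26, and the second turned to -0.05 with library totals alone.

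Snap23, the widely expressed Qbc-SNARE of the plasma membrane (chr2:120567671-120601255, plus strand), was 19.45, 30.06, 28.57 and 29.4 CPM in the controls (mice 1 to 4), against 27.8, 25.6, 23.0 and 24.3 CPM in the RalA single mutants and 25.7, 24.1, 18.1 and 20.5 CPM in the double mutants. Control 1 stood below the other controls, and the other 3 controls lay above all RalA cKO and RalAB cKO mice. The log2 difference from control was -0.28 ± 0.15 in RalAB cKO (adjusted p = 0.213, edgeR) and -0.09 ± 0.15 in RalA cKO (adjusted p = 0.746, edgeR). Without control 1 the RalAB cKO value was -0.41 (adjusted p = 0.0378, edgeR).

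Snap29, a Qbc-SNARE without a membrane anchor that serves endosomal and autophagosomal fusion (chr16:17405986-17430827, plus strand), was 50.8, 58.7, 53.9 and 65.4 CPM in the controls (mice 1 to 4), against 53.35, 67.12, 63.89 and 68.0 CPM in the RalA single mutants and 66.6, 67.9, 68.4 and 59.2 CPM in the double mutants. In RalAB cKO 3 mice were above all controls and mouse 4 was among them. The log2 difference from control was 0.20 ± 0.11 in RalAB cKO (adjusted p = 0.222, edgeR) and 0.14 ± 0.11 in RalA cKO (adjusted p = 0.437, edgeR). Snap29 overlaps Pi4ka on the opposite strand, and no source used here says whether the counting used strand.

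**Figure D4:**
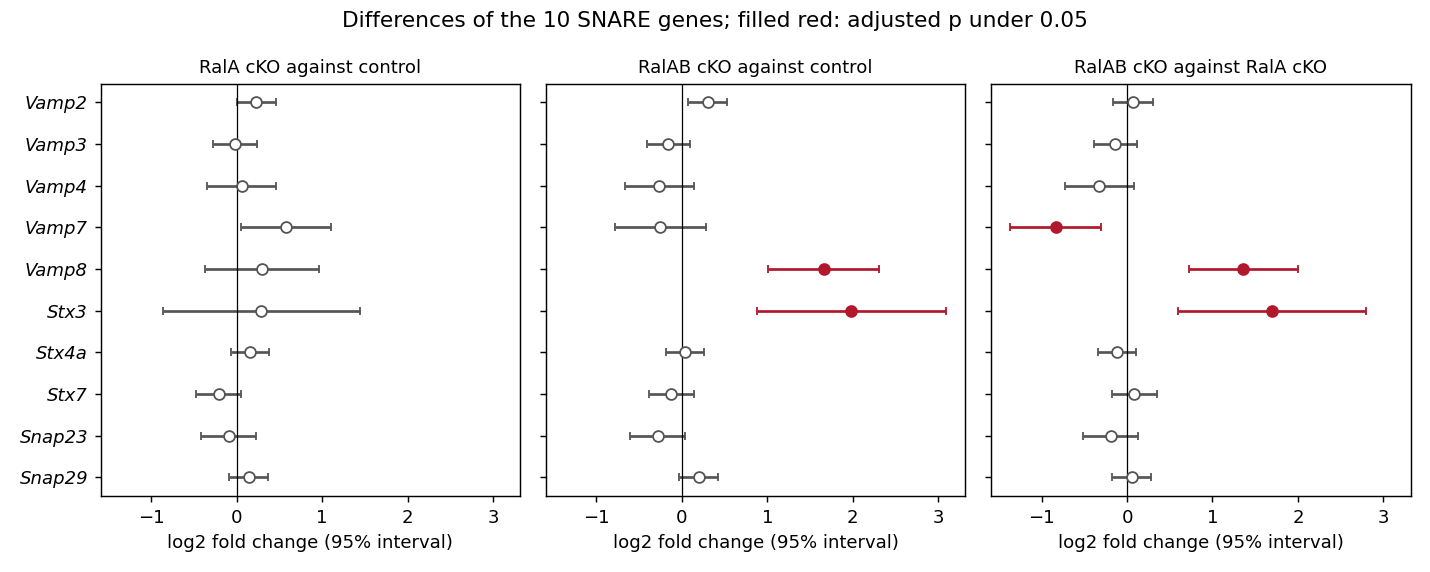
Log2 fold change of the 10 SNARE genes in the 3 comparisons, with 95% intervals from edgeR over 4 mice per group; filled red points have an adjusted p under 0.05. Vamp8 (1.66) and Stx3 (1.985) stand out in RalAB cKO against control, no gene does in RalA cKO against control, and Vamp7 (-0.84) lies on the other side between the mutants.

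Set against the background of all 13456 tested genes, 0 of the 10 passed in RalA cKO against control, where 2.78% of all genes passed (1.71% higher and 1.07% lower, 374 genes). In that comparison 1 of the 10, Vamp7, had an unadjusted p under 0.05, beside 3063 of all 13456 tested genes. DESeq2 and limma-voom called 0 of the 10 there as well. In RalAB cKO against control 2 of the 10 passed in edgeR, both higher, where 18.4% of all genes passed, 9.39% higher and 9.02% lower. DESeq2 called 3 of the 10, with Vamp2, and limma-voom called 4, with Vamp2 and, lower, Snap23. Those tools also called more genes in all, 2935 and 4022 against 2478 in edgeR. Between the mutants 3 of the 10 passed, 2 higher and 1 lower, where 11.5% of all genes did, 7.03% higher and 4.5% lower. The median log2 fold change of the 10 was 0.15 in RalA cKO, -0.04 in RalAB cKO and -0.03 between the mutants, beside -0.02, -0.01 and -0.03 over all tested genes. Groups did not overlap for 2 of the 10 in RalAB cKO against control and for 2 between the mutants, where 19.2% and 17.3% of all genes did not, and for 0 of the 10 in RalA cKO against control, where 11.4% did not. The number called in RalAB cKO was thus near the background, and the comparisons share the control or a mutant group.

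At the level of transcripts, 27 of the 51 annotated transcripts of the 10 genes could be tested, and 0 passed in any comparison in edgeR. By the same adjusted test, 0.117%, 1.68% and 1.52% of all 31497 transcripts passed in RalA cKO, in RalAB cKO and between the mutants. At an unadjusted p under 0.05, which is not comparable with those shares, there were 0, 4 and 3 of the 27. Nearly all counts of 3 genes fell on 1 transcript in control, 98.2% for Vamp2-201, 97.5% for Vamp3-201 and 98.3% for Vamp8-201. Vamp8-201, the 820-base coding transcript, had a log2 difference of 1.61 ± 0.37 in RalAB cKO against control (adjusted p = 0.0558, edgeR on transcripts). Stx3 counts lay mainly on Stx3-203, 87.1% ± 14.7 in control and 63.5% ± 10.2 in RalAB cKO, and on Stx3-202, 10.7% ± 11.9 and 27.7% ± 9.95 (SD, n = 4), from totals of at most 90 counts per library. Assignment within Vamp4 was unstable, since Vamp4-203 held from close to 0% to 55.2% of the counts in control mice. Snap23 counts lay mostly on Snap23-202 in control (76.0% ± 5.62), and in RalA cKO its share was 13.9% to 78.4% between mice.

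For each gene that passed a test, the tested genes with the most similar pattern over the 12 libraries were listed by Pearson's r of log2 CPM among 12491 genes. For Vamp8 they were Cmtm3 (r = 0.975), Itgax (r = 0.959), which encodes the integrin CD11c of myeloid cells, and Tagln2 (r = 0.953). Itgax was 0.279 ± 0.318 CPM in control, 0.763 ± 0.699 CPM in RalA cKO and 13.0 ± 5.86 CPM in RalAB cKO. For Stx3 they were Zbtb43 (r = 0.935), Insig2 (r = 0.93), an endoplasmic reticulum protein of sterol regulation, and Synpr (r = 0.93). Synpr, the synaptic vesicle protein synaptoporin, was 1.27 ± 0.481 CPM in control and 12.3 ± 3.60 CPM in RalAB cKO. For Vamp7 they were Chmp2b (r = 0.95), a subunit of ESCRT-III, Cmpk1 (r = 0.94) and Gnpda2 (r = 0.921). These values describe the 12 libraries, which share the group differences, and carry no test.

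The other SNAREs gave the setting for these changes. Of the 26, 24 could be tested, and Stx11 and Stx19 could not, with at most 7 counts in a library. In RalA cKO against control 1 passed and was higher, in RalAB cKO 3 were higher and 4 lower, and between the mutants 2 were lower. Of all tested genes 2.78%, 18.4% and 11.5% passed in these comparisons. The median log2 fold changes of the other SNAREs were 0.01, -0.05 and -0.07. Vamp5, an R-SNARE known from muscle cells, was the 1 that passed in edgeR in both mutants against control. Use1 passed in both with DESeq2 and limma-voom, and Stx5a and Vti1a did so with limma-voom.

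Vamp5 lies beside Vamp8 on the same strand at chr6:72368794-72380468, with 4754 bases between the gene models. It had 4, 3.07, 10 and 0 counts in control mice 1 to 4, 17, 33, 62.15 and 93 in RalA cKO mice and 51, 43, 47 and 40 in RalAB cKO mice. Every mutant library was above every control. The log2 fold change was 3.74 ± 0.56 in RalA cKO (adjusted p = 0.00335, edgeR) and 3.51 ± 0.56 in RalAB cKO (adjusted p = 0.000536, edgeR), and these folds rest on 17.07 counts summed over the controls. The mutants differed by -0.23 ± 0.44 (adjusted p = 0.827, edgeR), with an interval of -1.17 to 0.71. Vamp8, its neighbour, had passed only in the comparisons with RalAB cKO, and the difference between the 2 genes in this respect was not tested.

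Of the other endosome and trans-Golgi SNAREs, 7 of 8 were tested, as 1 symbol (Tsnare1) had no match, and in RalAB cKO against control Stx16 was higher (0.67 ± 0.21) while Stx6 (-0.415 ± 0.11) and Vti1a (-0.36 ± 0.11) were lower. Stx6, a Qc-SNARE of the trans-Golgi network, was also lower in RalAB cKO than in RalA cKO, by -0.68 ± 0.11 (adjusted p = 0.000662, edgeR), with means of 118.2, 141.6 and 88.7 CPM in control, RalA cKO and RalAB cKO. Of the 10 SNAREs of the endoplasmic reticulum and Golgi, Use1 was higher (0.455 ± 0.13) and Bet1 lower (-0.38 ± 0.13) in RalAB cKO against control, and Bet1 was lower than in RalA cKO (-0.475 ± 0.13). Of these, Vamp5 in both mutants and Stx6 between the mutants held without each library in turn, and each other call was lost without 2 to 10 of the 12 libraries, with adjusted p up to 0.122. With transcript length offsets Stx16 and Vti1a lost their calls (0.43 and -0.29, adjusted p = 0.117 and 0.21, edgeR), and Stx16 was 0.41 without both control 1 and RalAB cKO 1 (0.166).

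Among SM proteins and syntaxin binders, which clasp assembling SNAREs, 13 of 15 were tested, and 1 was higher and 2 were lower in RalAB cKO against control. Over all tested genes 9.39% were higher and 9.02% lower in that comparison. Stxbp2 (Munc18-2), known as the partner of syntaxin 3 and syntaxin 11 in granule release of blood cells, was 28.1 ± 4.41, 29.3 ± 4.41 and 41.4 ± 7.67 CPM in control, RalA cKO and RalAB cKO. It rose in RalAB cKO against control (0.56 ± 0.15, adjusted p = 0.0185, edgeR) and against RalA cKO (0.50 ± 0.15, adjusted p = 0.0445, edgeR). Stxbp6 (amisyn) fell in RalAB cKO by 0.77 ± 0.18 (adjusted p = 0.007, edgeR). The call of Stxbp6 held without each library in turn, and those of Stxbp2 were lost without 4 and 7 of the 12, with adjusted p up to 0.149. With transcript length offsets Stxbp2 in RalAB cKO against control was 0.34 (adjusted p = 0.24, edgeR).

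The calcium sensors, complexins and priming factors numbered 24, of which 19 were tested, with a median log2 fold change of -0.57 in RalA cKO and -0.95 in RalAB cKO. In RalAB cKO against control 4 fell and 1 rose, where 9.02% of all tested genes fell and 9.39% rose. The 4 with the smallest p were Syt3 (-1.52 ± 0.43), Syt12 (-1.77 ± 0.52), Cplx1 (-1.25 ± 0.36) and Unc13d (1.285 ± 0.39). Unc13d, the Munc13-4 priming factor of granules in blood cells, was 1.08 ± 0.588 CPM in control, 1.09 ± 0.259 CPM in RalA cKO and 2.65 ± 0.329 CPM in RalAB cKO, and was also higher than in RalA cKO (1.265 ± 0.395, adjusted p = 0.0486, edgeR). Syt9 was lower in RalAB cKO than in RalA cKO (-1.09 ± 0.26, adjusted p = 0.0102, edgeR). Of the 11 tested neuron markers 4 fell in RalAB cKO against control and 0 in RalA cKO. In the latter 7 had an unadjusted p under 0.05, beside 3063 of all 13456 tested genes. The part of neurons in the fall of the sensors was not tested. Without single libraries Syt9 held, and the other calls were lost without 3 to 10 of the 12, with adjusted p up to 0.135. With transcript length offsets several calls ended in edgeR, with Syt12 at -0.58 (adjusted p = 0.717), Syt3 at -1.31 (0.0735), Unc13d at 0.82 (0.318) and, between the mutants, 0.63 (0.562), and Syt9 at -0.86 (0.173).

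Of the 16 endosomal tethers and R-SNARE adaptors, 2 fell in RalAB cKO against control, Vps8 (-0.42 ± 0.10, adjusted p = 0.0103, edgeR) and Vps41 (-0.42 ± 0.12, adjusted p = 0.0245, edgeR). In that comparison 9.02% of all tested genes fell. Vps8 belongs to the CORVET tether of early endosomes and Vps41 to the HOPS tether of late endosomes. The other subunits particular to these complexes did not pass, with values of 0.10 for Tgfbrap1 (CORVET) and 0.19 for Vps39 (HOPS). Ap3b1, of the AP-3 adaptor that sorts VAMP7, was higher in RalAB cKO than in RalA cKO (0.43 ± 0.105, adjusted p = 0.0118, edgeR) and did not pass against control. Vps41 lost its call without 4 of the 12 libraries (adjusted p up to 0.0872) and Ap3b1 without 1 (0.0507), and Vps8 held. With transcript length offsets Ap3b1 was 0.28 (adjusted p = 0.177, edgeR).

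In edgeR 2.78%, 18.4% and 11.5% of all tested genes passed in RalA cKO, in RalAB cKO and between the mutants. An unadjusted p under 0.05 was reached by 3063, 4314 and 3081 of the 13456 genes. DESeq2 called 1054, 2935 and 1874 genes in the same order, and limma-voom called 1631, 4022 and 2510. Of the 4 genes of SNARE disassembly, 0 passed in edgeR in any comparison, with 2, 0 and 0 at an unadjusted p under 0.05. DESeq2 called 0 in each, and limma-voom called 0, 0 and 1 (Napg, lower between the mutants). Napa (alpha-SNAP) was 319 ± 27.5, 331 ± 19.5 and 337.4 ± 24.98 TPM in control, RalA cKO and RalAB cKO, and the ATPase Nsf was 29.4 ± 13.1, 17.5 ± 3.53 and 19.0 ± 3.05 TPM. Of the 9 exocyst genes, 0 passed in edgeR in any comparison, with 0, 0 and 2 at an unadjusted p under 0.05. DESeq2 and limma-voom called 0, 0 and 1, the last being Exoc4, higher in RalAB cKO than in RalA cKO. The most abundant exocyst genes in control were Exoc7 at 85.8 ± 14.4 TPM and Exoc3 at 55.3 ± 9.56 TPM.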

How the data were processed

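The authors' files gave a length, an effective length, an estimated count and a TPM value per transcript, per the file headers. The submitters' processing notes name Trimmomatic 0.36, kallisto 0.44 and the build GRCm38.p6. The strand setting and index release are not given in the sources used here. Per the labels' protocols, RNA of sorted cells was extracted with Trizol and made into stranded mRNA libraries. Of 121843 transcripts, 121104 were matched to GENCODE vM21 and 739, with 0.2185% to 0.2772% of counts, were not. The deposited estimated counts were summed over 35675 genes and rounded, and the deposited TPM values were summed per gene for levels.

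The test was edgeR 4.0.16 (R 4.3.3; robust quasi-likelihood, filterByExpr with a minimum count of 10 and total of 15, TMM) over 13456 genes in all 12 libraries, with 1 mean per genotype and a Benjamini-Hochberg threshold of 0.05. Standard errors were derived from F (the estimate over root F). Simulated counts with 100 genes changed per fold gave recovery of 89%, 90% and 86% at 2-fold and 40%, 47% and 45% at 1.5-fold (for RalA cKO and RalAB cKO versus control and RalAB cKO versus RalA cKO, in that order). False calls made up 5.15%, 8.05% and 4.38% of the calls in the same order. The simulated counts took their spread from the trend with gene level alone and held no library that stood apart. Recovery in the real libraries can therefore differ from these values. The changed genes all had a mean of at least 5 CPM over the 12 libraries. Stx3 and Vamp5 lay below this level, so the recovery does not describe them. The genes and lists were chosen with earlier results of these data known. Named beside the 10 were the 5 most abundant SNAREs of control, up to 4 called genes of a list by smallest p, the 2 most abundant of a list with no call, and the 3 most similar genes. Same-group libraries differed far beyond sampling noise (chi-square per degree of freedom 9.09 to 39.5). Alternatives were DESeq2 1.42.0 scaling and test, library totals alone, no filter, limma 3.58.1 voom with quality weights, 2 groups alone, mouse number as a block, length offsets, a Y-linked covariate, each library left out, and, added after seeing the data, coding transcripts alone and control 1 and RalAB cKO 1 left out together. Some genes of these lists are counted but not reported here by name.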

Additional observations from a re-analysis of the deposited data

Results flagged for a closer look

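Within single groups, 3 of 30 sets of 4 values had a mouse far from the others, and chance gives about 1 in 20. Vamp2 was 256.6 CPM in RalAB cKO 1, where the other 3 mice had 307.5 to 308.2 CPM. Vamp4 was 8.003 CPM in RalAB cKO 2, where the others had 12.03 to 12.55 CPM. Snap23 was 19.45 CPM in control 1, where the others had 28.57 to 30.06 CPM. Control 1 and RalAB cKO 1 were also the libraries with the lowest quality weights.

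The changes from control differed between the mutants for 3 genes in edgeR. RalAB cKO minus RalA cKO was -0.84 for Vamp7 (adjusted p = 0.0392), 1.36 for Vamp8 (adjusted p = 0.00642) and 1.7 for Stx3 (adjusted p = 0.0444), on the log2 scale.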

How the results depend on the processing

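Genes past the threshold in RalA cKO against control numbered 374, and 1054 with the DESeq2 test, 1631 with limma-voom, 90 with the Y-linked covariate, 1693 without control 1 and RalAB cKO 1, and 85 to 947 when 1 library was left out (85 without RalA cKO 4, 947 without control 1). In RalAB cKO against control they numbered 2478, and 4022 with limma-voom, 3962 without control 1 and RalAB cKO 1, and 1605 to 3209 when 1 library was left out. Between the mutants they numbered 1551, and 2510 with limma-voom. The 10 SNAREs gave 2 calls in RalAB cKO against control, and 4 with limma-voom, 4 without control 1 and RalAB cKO 1, and 2 to 4 when 1 library was left out (4 without control 1), where Vamp2 and Snap23 were added. Between the mutants they gave 3, and 1 with library totals alone and 1 to 3 when 1 library was left out. Library totals alone moved the median of all genes to -0.138 (RalA cKO) and -0.099 (RalAB cKO) against control, where the calls split into 176 higher and 250 lower, and 1002 higher and 1419 lower, against 230 and 144, and 1264 and 1214.

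With mouse number as a replicate block, 232 genes passed in RalA cKO against control, Vamp7 between the mutants was -0.769 (adjusted p = 0.0786 in edgeR), and no other call of the 10 changed. Among the other named genes, Vti1a, Bet1 and Syt12 in RalAB cKO against control and Stxbp2 and Unc13d between the mutants lost their calls. Same-numbered mice had correlations of -0.198 to 0.175, and 5 of 24 library and group pairs correlated best with their own number, so the numbers did not pair the mice.

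Of the signs that turned, none belonged to a called value. With library totals alone, Vamp4 in RalA cKO was -0.064 and Stx4a in RalAB cKO -0.05. With the Y-linked covariate, Vamp8 in RalA cKO was -0.062, Snap23 in RalA cKO 0.117 and Snap29 between the mutants -0.005. Stx3 in RalA cKO was -0.12 with limma-voom, and Vamp4 in RalA cKO was -0.014 without control 1 and RalAB cKO 1. With 1 library left out, the ranges in RalA cKO were -0.111 to 0.051 for Vamp3, -0.03 to 0.162 for Vamp4, -0.008 to 0.471 for Vamp8 and -0.15 to 0.654 for Stx3, and Stx4a in RalAB cKO was -0.016 to 0.086 and Snap29 between the mutants -0.02 to 0.099. The cause was not tested. Ordered by mean control level, the 10 kept their places with the median, with counts per length after TMM and without each control. With coding transcripts alone 8 did, and Snap29 (27.56 TPM) passed Snap23 (25.43 TPM). The depth of Stx3 and Vamp5, at most 93 counts in a library, limits what can be said of them.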
